A study of Caenorhabditis elegans with 18 samples.

Results

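Thiabendazole (TBZ) was set against 4 benzimidazole carbamates given at the same dose and for the same time, and the genes were sought at which TBZ stood apart from every carbamate in 1 direction. RNA levels were read by sequencing of whole Caenorhabditis elegans from liquid cultures, many worms to a library. The carbamates were albendazole (ABZ), fenbendazole (FBZ), oxfendazole (OxBZ) and mebendazole (MBZ), with 3 libraries each, and TBZ had 3 libraries (15 of the 18 libraries of the series). The other 3 were DMSO, the solvent. All worms, DMSO controls included, were of strain CB3474 with ben-1(e1880)III, and no library with wild-type ben-1 was analysed here. Each drug was given at 1.13 mM for 4 h. The labels describe both growth to the adult stage and a mixture of larval stages, and they do not say whether each drug had cultures of its own. P-values therefore measure the spread between these libraries, which may be technical. Library labels number TBZ from 2 to 4 and the other groups from 1 to 3. One OxBZ library, replicate 2, is labelled with a shortened drug name and was placed by its title.

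Benzimidazoles are anthelmintics that bind beta-tubulin and block microtubule assembly, and in C. elegans most of their action on wild-type worms goes through the beta-tubulin BEN-1. ABZ, FBZ, OxBZ and MBZ share a methyl carbamate on the benzimidazole ring and differ in the group on the other ring, which is a propylthio group in ABZ, a phenylthio group in FBZ, its sulfoxide in OxBZ and a benzoyl group in MBZ. TBZ has a thiazole in place of the carbamate and no such group on the other ring. Worms clear foreign compounds with enzymes that oxidize, reduce or hydrolyse them (cytochrome P450, short-chain dehydrogenases, esterases). Other enzymes attach sugars or glutathione (UDP-glucuronosyltransferases, glutathione S-transferases), and ATP-binding cassette (ABC) transporters also take part. CYP-35D1 is a P450 known in C. elegans to hydroxylate TBZ, and the nuclear hormone receptor NHR-176 is known to be needed for its induction by that drug.

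Levels are given as CPM, reads per gene scaled to library totals adjusted by the trimmed mean of M-values (TMM), and they compare libraries but not genes of unequal length. Library totals ran from 57010263 to 67277284 counts. The sperm gene list held 0.433% of reads in ABZ replicate 2 and 0.446% in DMSO replicate 2, against 0.0226% to 0.130% in the other 16 libraries, and the 3 TBZ libraries lay at 0.103% to 0.116%. FBZ had the lowest sperm shares, 0.0226% to 0.0252%. Collagen genes took 2.03%, 1.51% and 1.27% of counts in TBZ replicates 2, 3 and 4, so replicate 2 stood apart from the other TBZ libraries. Markers of intestine, muscle, neurons, hypodermis, oocytes and sperm were all read, as they should be in whole worms, and fewer cells of a type cannot be told apart from less RNA per cell. Of the mutated gene only the transcript level was measured: ben-1 had 59.3 ± 7.45 CPM under ABZ, 66.4 ± 0.631 under FBZ, 53.8 ± 3.75 under OxBZ, 52 ± 2.8 under MBZ and 54.8 ± 1.54 under TBZ, against 57.7 ± 7.81 in DMSO (SD, n = 3 each).

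OxBZ and FBZ differed from TBZ at more genes than ABZ and MBZ did. In edgeR's quasi-likelihood test, with Benjamini-Hochberg adjustment over 17484 genes and the 4 pairs together, ABZ was higher than TBZ at 1080 genes (6.18% of those tested) and lower at 711 (4.07%). FBZ was higher at 2457 genes (14.1%) and lower at 2966 (17%). OxBZ was higher at 3579 genes (20.5%) and lower at 2791 (16%). MBZ was higher at 675 genes (3.86%) and lower at 480 (2.75%). The pairs share the 3 TBZ libraries, so their counts are not independent. Replicates also lay closer together in some groups than in others. A chi-square per gene between libraries of a group, larger where they differ more, was 7.162 to 17.53 in FBZ. It was 5.175 to 45.29 in OxBZ, 144.9 to 217.7 in ABZ, at least 48.15 in MBZ and 22.43 to 186.3 in TBZ. One model pooled the spread of all groups. Whether culture or batch, rather than drug, made part of the FBZ and OxBZ counts was not tested. With adjustment within each pair alone, ABZ was higher at 688 genes and lower at 419, and MBZ higher at 383 and lower at 221. Single libraries moved these counts. ABZ was higher at 638 genes without TBZ replicate 3, and lower at 1106, 411 and 452 without TBZ replicates 2, 3 and 4. FBZ was lower at 1857, 1971 and 1960 genes without FBZ replicate 1, FBZ replicate 2 and TBZ replicate 3. OxBZ was higher at 2118 genes without OxBZ replicate 1, and lower at 4662 without ABZ replicate 2 and DMSO replicate 2 together. MBZ was higher at 428 and 413 genes without MBZ replicate 1 and TBZ replicate 4. MBZ was lower at 1394, 232 and 269 genes without TBZ replicates 2, 3 and 4, and at 736, 744 and 839 without ABZ replicate 1, DMSO replicate 1 and DMSO replicate 2.

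**Figure D1:**
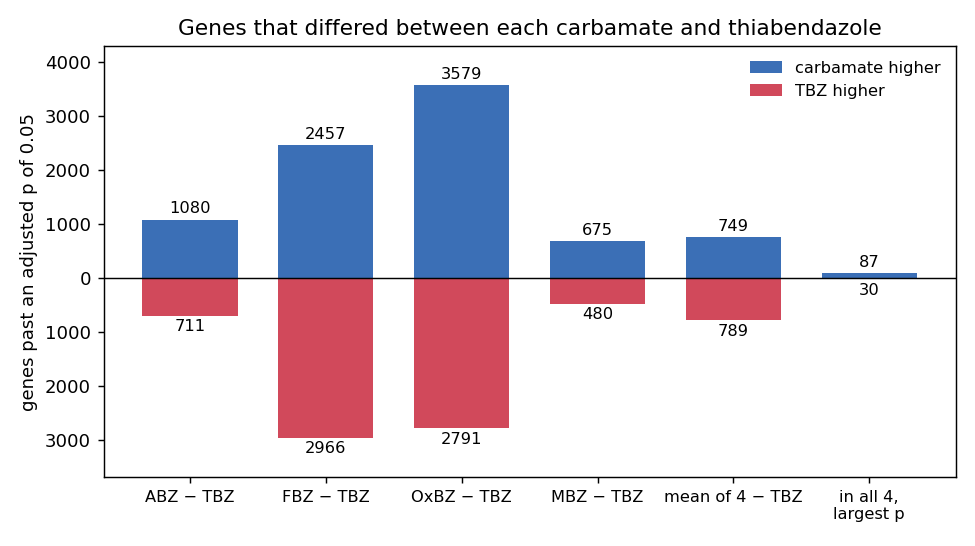
Number of genes past an adjusted p of 0.05 in edgeR's quasi-likelihood test, upward where the carbamate was higher and downward where TBZ was higher, for each of the 4 pairs, for the mean of the 4 carbamates and for genes that differed in all 4 pairs by their largest p. The OxBZ pair has 3579 and 2791 genes and the MBZ pair 675 and 480, while 87 and 30 genes remain when all 4 pairs are asked for.

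The mean of the 4 carbamates, each group counting equally, was higher than TBZ at 749 genes (4.28% of those tested) and lower at 789 (4.51%). A gene was called apart when TBZ differed from each of the 4 carbamates in the same direction and the largest of its 4 p-values passed after adjustment over all genes. By that rule 87 genes (0.498%) were higher under every carbamate and 30 genes (0.172%) were higher under TBZ. At all 117 of them the 3 TBZ libraries did not overlap the 12 carbamate libraries, a separation that 370 tested genes showed with the carbamates higher (2.12%) and 254 with TBZ higher (1.45%). The nearest carbamate was MBZ for 45 of the 87 genes and for 18 of the 30. Values just inside the threshold were those of C09D4.1, with a smallest log2 fold change of -0.52 (adjusted p = 0.0474), and just outside it those of C25D7.5, with 1.33 (adjusted p = 0.0541), both named after their values were seen.

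These counts moved with single libraries. Among the 3 TBZ libraries, replicate 2 lay nearest the carbamates at 69 of the 117 genes, replicate 3 at 24 and replicate 4 at 24. The 87 genes became 43 without TBZ replicate 3, 43 without TBZ replicate 4 and 47 without MBZ replicate 1. The 30 genes became 13 without TBZ replicate 3, 15 without TBZ replicate 4, 15 without MBZ replicate 1, 17 without MBZ replicate 3 and 116 without TBZ replicate 2. With ABZ replicate 2 and DMSO replicate 2 both left out, TBZ was higher at 50 genes in all 4 pairs. Of the 87 genes, 36 kept the call whichever of the 18 libraries was left out, and of the 30 genes 11 did. For the carbamate mean, 749 became 434 without TBZ replicate 3 and 477 without TBZ replicate 4, and 789 became 420, 509, 1216 and 1195 without TBZ replicate 3, TBZ replicate 4, TBZ replicate 2 and ABZ replicate 2. With ABZ replicate 2 and DMSO replicate 2 both left out, 1005 genes were higher and 2534 lower.

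cyp-35D1 separated TBZ from the carbamates more clearly than any other gene, with the smallest adjusted p of the 117. It had 52.5, 42.6 and 46.8 CPM under ABZ, 0.692, 0.988 and 1.28 under FBZ, 10.8 ± 1.35 under OxBZ and 3.13, 2.6 and 1.96 under MBZ, then 1290, 1150 and 1210 CPM in the 3 TBZ libraries. DMSO libraries had 0.664, 0.359 and 0.795 CPM. All TBZ libraries lay far above all others, and the 4 carbamates themselves spread widely, with ABZ highest, then OxBZ, MBZ and FBZ. The log2 fold change against TBZ was -4.69 ± 0.222 for ABZ, -10.27 ± 0.291 for FBZ, -6.81 ± 0.246 for OxBZ and -8.89 ± 0.272 for MBZ (approximate SE), with an adjusted p of 7.02e-08 for the largest of the 4. Against DMSO the carbamate mean rose by 3.29 ± 0.225 on the log2 scale (adjusted p = 4.77e-07) and TBZ by 10.96 ± 0.302 (adjusted p = 3.6e-11).

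nhr-176, the receptor named above, was lower under TBZ than under each carbamate. It had 6.93 ± 0.172 CPM under ABZ, 4.17 ± 0.216 under FBZ, 5.7 ± 0.386 under OxBZ and 5.55 ± 0.0568 under MBZ, then 2.99, 2.24 and 2.53 CPM in the TBZ libraries and 4.68, 4.3 and 3.79 in DMSO. TBZ libraries lay below all others. The smallest of the 4 log2 fold changes was 0.69 ± 0.136, for FBZ (adjusted p = 0.029), and under TBZ it fell by 0.72 ± 0.137 on the log2 scale relative to DMSO (adjusted p = 0.00648). That call in all 4 pairs was lost without ABZ replicate 3, OxBZ replicate 2, MBZ replicate 2 or 3, any 1 of the 3 FBZ libraries, or TBZ replicate 3 or 4 (adjusted p from 0.0506 to 0.203), while nhr-176 kept its call in the carbamate mean.

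**Figure D2:**
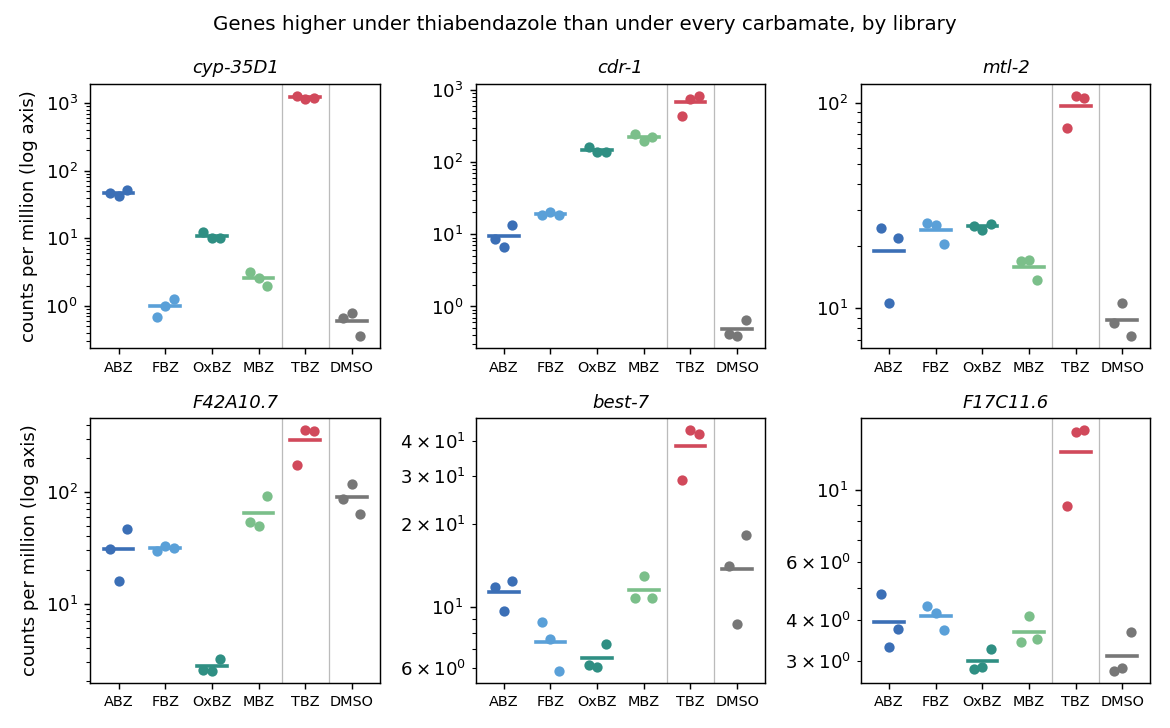
CPM of 6 genes in each of the 18 libraries on a log axis, with points for libraries and a bar for the mean of 3, by drug group. In each panel the 3 TBZ points lie above the 12 carbamate points, and cyp-35D1 has at most 52.5 CPM in a carbamate library against 1150 to 1290 CPM in TBZ libraries.

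Some genes of the metal response set TBZ apart. cdr-1, a cadmium-responsive gene, had 9.56 ± 3.37 CPM under ABZ, 19.1 ± 1.15 under FBZ, 146 ± 14.2 under OxBZ and 220 ± 24.6 under MBZ, then 435, 742 and 828 CPM in TBZ libraries, and DMSO had 0.415, 0.646 and 0.389. Every drug library lay above every DMSO library, and the drugs formed a series from ABZ to TBZ. The nearest carbamate, MBZ, was lower by a log2 fold change of -1.60 ± 0.240 (adjusted p = 0.00412 for the largest p of 4). mtl-2, a metallothionein that binds metal ions in the intestine, had 10.6 to 25.9 CPM in the 12 carbamate libraries, then 95.8 ± 18.1 CPM under TBZ (75.1, 108 and 105 in its libraries), and 8.79 ± 1.68 in DMSO. Its smallest log2 fold change was -1.94 ± 0.251, against OxBZ (adjusted p = 0.0015).

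cdr-2, a relative of cdr-1, went the other way. It had 73.3 ± 21.1, 59.8 ± 2.28, 86.1 ± 10.8 and 62.4 ± 10.2 CPM under ABZ, FBZ, OxBZ and MBZ, then 21.7, 5.9 and 5.71 CPM in TBZ libraries and 25.2, 50.5 and 39.5 in DMSO. TBZ replicate 2 was the highest of the TBZ libraries and still below every carbamate library. The smallest log2 fold change was 2.43 ± 0.434 (adjusted p = 0.0142), and the call was lost without TBZ replicate 3 (adjusted p = 0.0818), TBZ replicate 4 (0.0804) or MBZ replicate 1 (0.0736). cdr-6, a further relative, was higher in the carbamate mean by 1.31 ± 0.200 (adjusted p = 0.000607) but did not pass in all 4 pairs. mtl-1, the second metallothionein, had a log2 fold change of 1.91 ± 0.758 (adjusted p = 0.154), with a 95% interval of 0.29 to 3.54, and is named after its values were seen. Of 11 metal response genes tested, 3 were higher and 2 lower in the carbamate mean, beside 4.28% and 4.51% of all genes. In all 4 pairs 1 was higher and 2 were lower, beside 0.498% and 0.172% of all genes.

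The other 9 genes with the largest separation toward TBZ included several that the files name only by sequence. F17C11.6 had 2.83 to 4.79 CPM in the 12 carbamate libraries, then 8.91, 15 and 15.2 CPM in TBZ libraries, and 3.1 ± 0.488 in DMSO. Its smallest log2 fold change was -1.67 ± 0.212 (adjusted p = 0.00131). The carbamate mean lay 0.24 ± 0.168 above DMSO on the log2 scale (adjusted p = 0.346), with a 95% interval of -0.12 to 0.60, and TBZ rose by 2.08 ± 0.216 (adjusted p = 6.22e-05). C39B5.14 had at most 0.528 CPM in a carbamate library, then 1.77, 2.9 and 2.57 CPM in TBZ libraries, and 0.329 ± 0.0725 in DMSO, with a smallest log2 fold change of -2.72 ± 0.406 (adjusted p = 0.00411).

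best-7, a gene of the bestrophin family of chloride channels, had 5.85 to 12.9 CPM in carbamate libraries, then 29, 43.8 and 42.6 CPM in TBZ libraries, and 14.1, 18.3 and 8.63 in DMSO. F11D5.7 had 0.341 to 2.29 CPM in carbamate libraries, then 6.79 ± 0.839 CPM under TBZ, and 1.94 ± 0.55 in DMSO. clec-204, a C-type lectin gene, had 0.487 to 1.59 CPM in carbamate libraries, then 3.97 ± 0.642 CPM under TBZ, and 1.88 ± 0.498 in DMSO. At these 3 genes the carbamate mean fell below DMSO, by 0.62, 1.09 and 1.07 on the log2 scale (adjusted p = 0.0274, 0.00401 and 0.00489), while TBZ rose by 1.49, 1.81 and 1.08 (adjusted p = 0.00233, 0.0021 and 0.0372). Both comparisons share the DMSO libraries.

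F42A10.7 had 31.1 ± 15.3 CPM under ABZ, 31.3 ± 1.8 under FBZ, 2.74 ± 0.402 under OxBZ and 65.2 ± 23.8 under MBZ, then 173, 357 and 354 CPM in TBZ libraries, and 89.9 ± 28 in DMSO. OxBZ libraries were the lowest by a wide margin, and no carbamate library reached the lowest TBZ library. The smallest log2 fold change was -2.17 ± 0.377 (adjusted p = 0.012). Its call was lost without MBZ replicate 1 (adjusted p = 0.0759), MBZ replicate 2 (0.0731), TBZ replicate 3 (0.0645) or TBZ replicate 4 (0.066).

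K08D10.13 was close to silent outside TBZ. It had 2 reads under ABZ, 3 under FBZ, 3 under OxBZ and 18 under MBZ, each over 3 libraries, then 957 under TBZ and no read in DMSO. TBZ libraries had 1.06, 5.47 and 7.83 CPM, so replicate 2 was the lowest of them. The ratio of depth-scaled reads, TBZ over MBZ, was 51.5, with a 95% counting interval of 32.4 to 87.2. Against DMSO it was at least 282-fold higher, taking 3 reads over the group as the floor. Its adjusted p for the largest of 4 was 0.012, and it was lost without MBZ replicate 1 (0.0996), MBZ replicate 3 (0.0677) or TBZ replicate 4 (0.0535).

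F48C1.9 had 0.302 to 1.26 CPM in carbamate libraries, then 3.96, 61.9 and 75.2 CPM in TBZ libraries, and 0, 0 and 0.259 in DMSO. F46B3.1 had 0.0341 to 2.36 CPM in carbamate libraries, then 4.4, 23 and 29.9 CPM in TBZ libraries, and 2.06, 0.663 and 1.12 in DMSO. At both genes TBZ replicate 2 stood far below the other TBZ libraries yet above all carbamate libraries. Their adjusted p values for the largest of 4 were 0.0169 and 0.0367. For F48C1.9 the call was lost without ABZ replicate 1 or 3, without any 1 of the 3 FBZ or 3 OxBZ libraries, and without MBZ replicate 1 or TBZ replicate 3 or 4 (adjusted p from 0.0516 to 0.125). For F46B3.1 it was lost without ABZ replicate 3, OxBZ replicate 2, DMSO replicate 3, any 1 of the 3 FBZ or 3 MBZ libraries, or TBZ replicate 3 or 4 (adjusted p from 0.0503 to 0.19).

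Among the smaller separations toward TBZ, 2 genes chosen after their values were seen kept their call whichever library was left out. faah-1, the fatty acid amide hydrolase that degrades N-acylethanolamines, had 41.1 ± 2.46 CPM under ABZ, 48.3 ± 0.41 under FBZ, 21.4 ± 0.878 under OxBZ and 47 ± 5.57 under MBZ, then 78.7, 76.9 and 75.1 CPM in TBZ libraries, and 47.4 ± 5.89 in DMSO. cgr-1, a gene of the CRAL/TRIO lipid-binding family, had 8.41 to 17 CPM in carbamate libraries, then 26.4 ± 2.35 CPM under TBZ, and 18.5 ± 3.06 in DMSO. The smallest log2 fold changes were -0.67 ± 0.0914 (adjusted p = 0.0021) and -0.80 ± 0.120 (adjusted p = 0.00412).

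Among the genes higher under every carbamate were enzymes of drug metabolism and members of a family of kinase-like genes. T16G1.6 belongs to the T16G1, E02C12 and C29F7 genes, which encode predicted proteins with a kinase-like fold. It had 96.2, 63.5 and 133 CPM under ABZ, 212 ± 9.24 under FBZ, 368, 319 and 335 under OxBZ and 304, 208 and 283 under MBZ, then 7.31, 8.06 and 11 CPM under TBZ and 9.8, 10.2 and 9.66 in DMSO. Each carbamate library lay far above all TBZ and DMSO libraries, which overlapped each other. The log2 fold change against TBZ was 3.47 ± 0.236 for ABZ, 4.59 ± 0.248 for FBZ, 5.27 ± 0.256 for OxBZ and 4.91 ± 0.252 for MBZ, with an adjusted p of 4.82e-06 for the largest of the 4. TBZ differed from DMSO by -0.17 ± 0.220 (adjusted p = 0.648), with a 95% interval of -0.64 to 0.30.

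T16G1.7 and T16G1.5, the second named after its values were seen, are neighbours of T16G1.6 on chromosome V, so reads could be shared between them. T16G1.7 had 49.7 to 207 CPM in carbamate libraries, then 17.8, 9.29 and 8.53 under TBZ and 45.9 ± 4.62 in DMSO. T16G1.5 had 4.34 to 17.8 CPM in carbamate libraries, then 1.33 ± 0.539 under TBZ and 5.59 ± 1.36 in DMSO. Unlike T16G1.6, both fell under TBZ against DMSO, by 1.95 ± 0.244 and 2.07 ± 0.289 on the log2 scale (adjusted p = 0.000342 and 0.000714). C29F7.1, also named after its values were seen, of the same family on chromosome X, had 20.8 ± 2.97, 33.4 ± 2.96, 79.6 ± 7.97 and 17.9 ± 3.79 CPM under ABZ, FBZ, OxBZ and MBZ, then 4.34 ± 1.54 under TBZ and 4.45 ± 0.734 in DMSO. Of 17 tested genes of the family, 11 were higher and 0 lower in the carbamate mean, beside 4.28% and 4.51% of all genes. In all 4 pairs 4 were higher, beside 0.498% of all genes. The median log2 fold change was 1.52, beside -0.00798 over all genes tested.

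**Figure D3:**
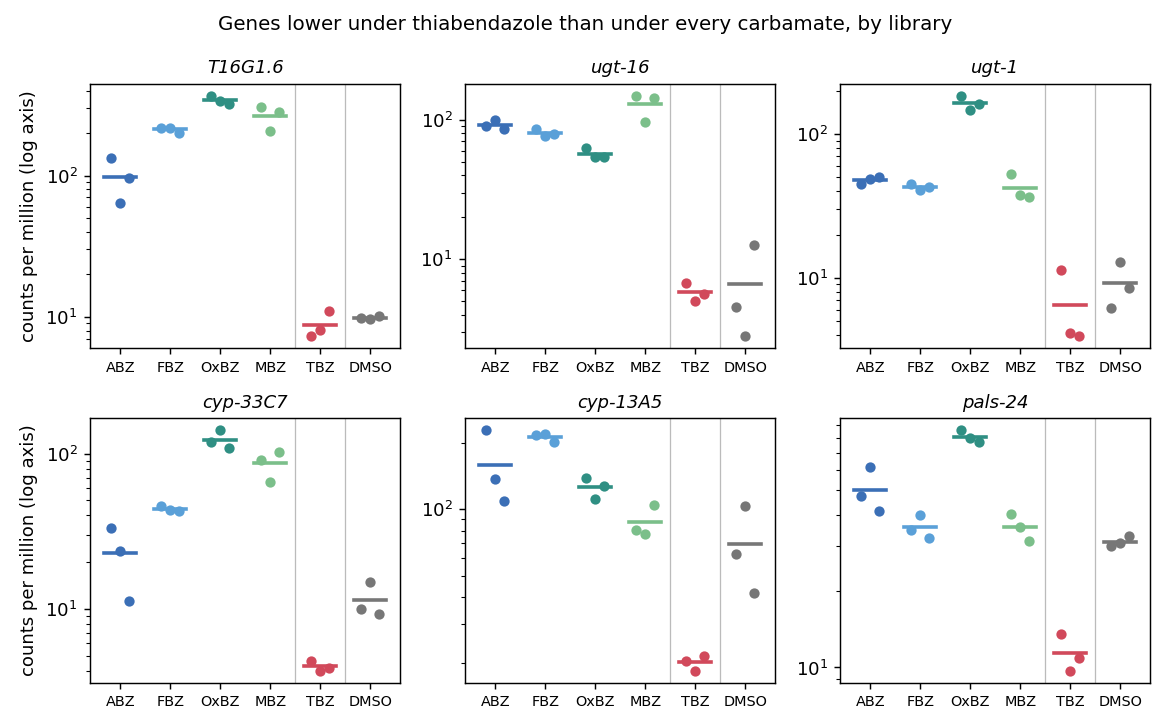
CPM of 6 genes in each of the 18 libraries on a log axis, with points for libraries and a bar for the mean of 3, by drug group. TBZ points lie below all carbamate points in each panel, and beside the DMSO points for T16G1.6 and ugt-16 but below them for cyp-33C7, cyp-13A5 and pals-24.

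UDP-glucuronosyltransferases attach sugars to foreign compounds. ugt-16 had 85.4, 100 and 89.8 CPM under ABZ, 86.4, 76.7 and 79.2 under FBZ, 62.7, 54.2 and 54.2 under OxBZ and 149, 97.2 and 143 under MBZ, then 6.73, 5 and 5.6 CPM under TBZ and 4.52, 12.7 and 2.81 in DMSO. The carbamate libraries lay apart from the TBZ and DMSO libraries, which overlapped. The smallest log2 fold change was 3.30 ± 0.396, for OxBZ (adjusted p = 0.000948). ugt-1 had 36.2 to 185 CPM in carbamate libraries, with OxBZ highest at 164 ± 18.9, then 11.3, 4.14 and 3.93 under TBZ and 9.18 ± 3.43 in DMSO, and its smallest log2 fold change was 2.70 ± 0.357 (adjusted p = 0.00171). ugt-2, its neighbour, and ugt-5 are named after their values were seen. ugt-2 had 17.4 to 58.8 CPM in carbamate libraries, then 6.03 ± 1.82 under TBZ and 12.9 ± 2.41 in DMSO. ugt-5 had 11.1 to 19.3 CPM in carbamate libraries, then 5.19 ± 1.67 under TBZ and 5.46 ± 1.06 in DMSO. These genes kept their calls whichever library was left out. Of 66 tested, 21 were higher and 7 lower in the carbamate mean, beside 4.28% and 4.51% of all genes. Their median log2 fold change was 0.40. In all 4 pairs 5 were higher, beside 0.498% of all genes.

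P450 genes of several families were lower under TBZ than under every carbamate. cyp-33C7 had 22.7 ± 11 CPM under ABZ, 43.8 ± 1.72 under FBZ, 119, 109 and 141 under OxBZ and 86.8 ± 19.2 under MBZ, then 4.65, 3.99 and 4.14 CPM under TBZ and 10, 9.23 and 14.9 in DMSO. TBZ libraries lay below DMSO and carbamate libraries, and the gene fell by 1.42 ± 0.303 on the log2 scale under TBZ against DMSO (adjusted p = 0.0128). cyp-33C8 had 62.4 to 143 CPM in carbamate libraries, with group means of 85.6 to 109, then 19.5, 14.1 and 12.7 under TBZ and 18.2, 29.8 and 12 in DMSO. Reads of the cyp-33C genes could be shared between near-identical copies. Their smallest log2 fold changes were 2.42 ± 0.310 (adjusted p = 0.00147) and 2.47 ± 0.369 (adjusted p = 0.00412).

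cyp-13A5 had 159 ± 62.7, 214 ± 10.4, 126 ± 13.6 and 87.6 ± 15.6 CPM under ABZ, FBZ, OxBZ and MBZ, then 20.5, 18.4 and 21.5 under TBZ and 69.4 ± 31.7 in DMSO. Against DMSO the carbamate mean rose by 1.00 ± 0.241 on the log2 scale (adjusted p = 0.0122), whereas TBZ fell by 1.79 ± 0.294 (adjusted p = 0.00267). cyp-34A10 had 4.34 to 32.8 CPM in carbamate libraries, then 1.56 ± 0.157 under TBZ and 2.33 ± 0.794 in DMSO. cyp-43A1, chosen after its values were seen, had 33.3 to 69.2 CPM in carbamate libraries, then 16.6 ± 0.832 under TBZ and 26 ± 3.24 in DMSO. emb-8, also chosen after its values were seen, encodes the reductase that passes electrons to microsomal P450 enzymes. It had 238 to 389 CPM in carbamate libraries, then 153, 142 and 137 under TBZ and 208, 237 and 210 in DMSO, and it fell by 0.60 ± 0.0934 on the log2 scale under TBZ against DMSO (adjusted p = 0.0018).

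Of 74 tested P450 genes, 34 were higher and 5 lower in the carbamate mean, with a median log2 fold change of 1.08, and in all 4 pairs 8 were higher and 1 lower. The 5 lower became 2 without TBZ replicate 3 and 2 without TBZ replicate 4. The cyp-33 and cyp-34 genes had 15 higher and 1 lower of 26, and the cyp-14 genes 3 higher and 0 lower of 5. By pair, 20 P450 genes were higher in ABZ, 36 in FBZ, 42 in OxBZ and 31 in MBZ, and 5, 8, 5 and 7 were lower. Of all genes tested, 6.18%, 14.1%, 20.5% and 3.86% were higher in these pairs, and 4.07%, 17%, 16% and 2.75% were lower. In all 4 pairs, 0.498% of all genes were higher and 0.172% lower. Across all 315 tested genes for enzymes and transporters of drug metabolism, 88 (27.9%) were higher and 24 (7.62%) lower in the carbamate mean. Of these 315, 18 (5.71%) were higher under every carbamate. The share higher was above the 4.28% of all genes tested, and the share lower was nearer the 4.51%.

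**Figure D4:**
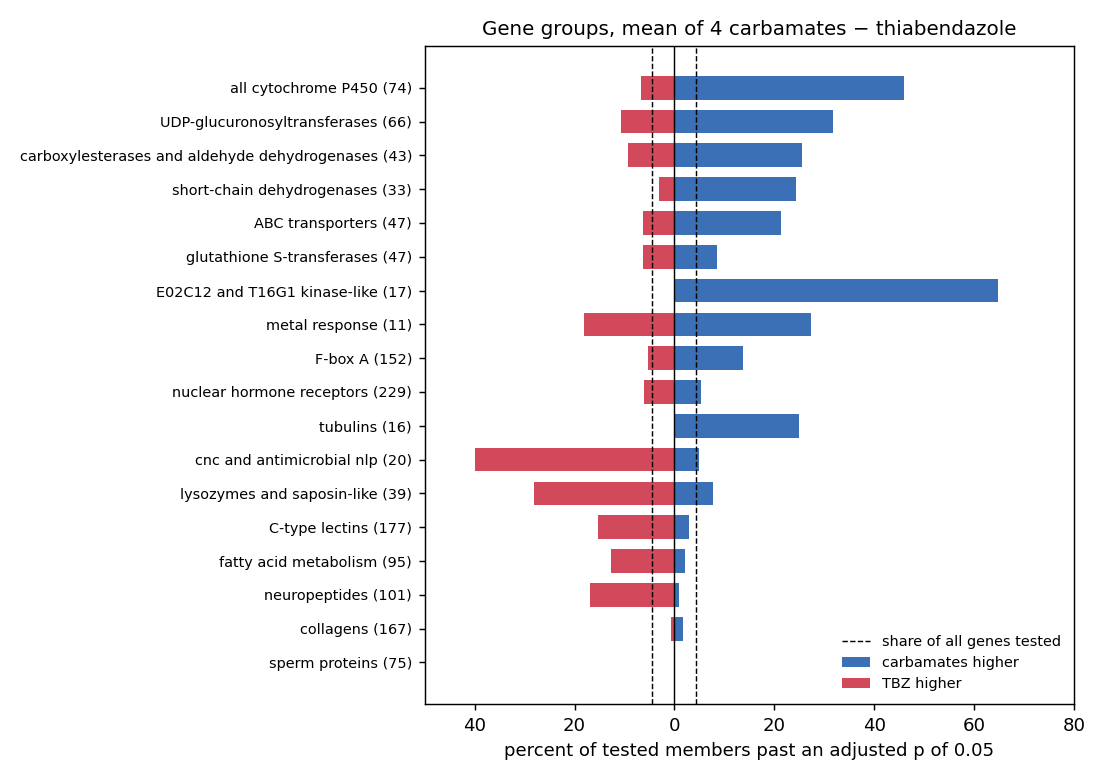
Percent of the tested members of 18 gene groups past an adjusted p of 0.05 in the carbamate mean against TBZ, rightward where the carbamates were higher and leftward where TBZ was higher, with the number tested in brackets. Dashed lines mark the shares of all genes tested, 4.28% and 4.51%, and the P450, UDP-glucuronosyltransferase and kinase-like groups extend rightward while the antimicrobial cnc and nlp group extends leftward.

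The cyp-35 genes, a P450 family raised by many foreign compounds, did not follow 1 pattern. Against TBZ 4 of 10 were higher and 2 lower in the carbamate mean, beside 4.28% and 4.51% of all genes. In all 4 pairs cyp-35C1 and cyp-35A2 were higher and cyp-35D1 lower, beside 0.498% and 0.172% of all genes. For cyp-35A2 the smallest log2 fold change was 1.405, and that call was lost without any 1 of 11 of the 18 libraries. Against DMSO 9 of 10 rose in the carbamate mean (against 7.08% of all genes higher and 12.5% lower) and 8 of 10 rose under TBZ (against 3.06% higher and 3.17% lower), both sharing the DMSO libraries. cyp-35C1 had 1210, 1060 and 1110 CPM under ABZ, 337, 371 and 297 under FBZ, 396, 359 and 336 under OxBZ and 391, 277 and 494 under MBZ, then 37, 73.2 and 117 CPM under TBZ and 7.47, 10.4 and 5.35 in DMSO. TBZ thus lay between DMSO and the carbamates with no overlap, and its smallest log2 fold change was 2.14 ± 0.334, for FBZ (adjusted p = 0.00586). cyp-35A1 had 5.97 to 60.4 CPM in carbamate libraries, then 4.28, 3.77 and 5.77 under TBZ and 0.0798 ± 0.0296 in DMSO, and it was not called in all 4 pairs, as the MBZ pair had a log2 fold change of 0.74 (adjusted p = 0.0669).

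cyp-35A5 leaned toward TBZ, with 85.9 ± 24.9 CPM under ABZ, 51.1 ± 1.63 under FBZ, 84.2 ± 8.45 under OxBZ and 37 ± 15.4 under MBZ, then 124, 118 and 140 CPM under TBZ and 0.609 ± 0.192 in DMSO. Its log2 fold change for the carbamate mean was -1.07 ± 0.195 (adjusted p = 0.00243), and ABZ and OxBZ differed from TBZ by -0.57 and -0.60 (adjusted p = 0.151 and 0.131), with unadjusted 95% intervals of -1.14 to -0.0025 and -1.17 to -0.03. For cyp-35A4 the carbamate mean differed from TBZ by -0.18 ± 0.466 (adjusted p = 0.87), with a 95% interval of -1.17 to 0.82, which holds changes in either direction. cyp-35B2 ran from 2.9 ± 0.124 CPM under MBZ to 49.8 ± 8.7 under OxBZ, then 5.29 ± 5.03 under TBZ and 0.376 ± 0.193 in DMSO, so TBZ overlapped the carbamates. Several cyp-35A genes are near copies of each other, and reads could be shared between them.

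Genes outside drug metabolism were also lower under TBZ than under every carbamate. C49G7.7 had the largest smallest log2 fold change, 3.59 ± 0.383, for ABZ (adjusted p = 0.000482). It had 14.6 ± 3.83, 16.4 ± 2.57, 24.8 ± 0.572 and 18.8 ± 6.21 CPM under ABZ, FBZ, OxBZ and MBZ, then 1.88, 1.06 and 0.702 under TBZ and 2.14, 4.41 and 4.59 in DMSO. C08E8.4 had 43.1 to 128 CPM in carbamate libraries, then 9.13, 4.15 and 3.06 under TBZ and 25.1, 46.2 and 47.2 in DMSO. The carbamate mean lay 0.80 ± 0.317 above DMSO on the log2 scale (adjusted p = 0.0923), while TBZ fell by 2.86 ± 0.411 (adjusted p = 0.000935).

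F54E2.1 had group means of 155 to 168 CPM under the 4 carbamates, then 44.4, 15.9 and 15.7 CPM under TBZ and 49.5, 65.2 and 37.3 in DMSO. F33H12.7 had 9.15 to 56.1 CPM in carbamate libraries, then 1.58, 1.93 and 2.03 under TBZ and 3.23 ± 1.79 in DMSO. Its smallest log2 fold change was 2.66 ± 0.430 (adjusted p = 0.00784), lost without TBZ replicate 3 (adjusted p = 0.0556). F14F9.3 had 8.17 to 173 CPM in carbamate libraries, with OxBZ at 157 ± 19, then 1.73, 3.5 and 4.02 under TBZ and 1.19 ± 0.15 in DMSO. Its adjusted p of 0.0164 was lost without TBZ replicate 2 (0.0661), TBZ replicate 3 (0.0798), TBZ replicate 4 (0.0535) or MBZ replicate 1 (0.128).

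pals-23 and pals-24 are neighbours on chromosome III in a family that includes regulators of the response to intracellular pathogens. pals-24 had 41.5, 61.6 and 47.4 CPM under ABZ, 34.9, 39.7 and 32.4 under FBZ, 85.8, 77.3 and 80.4 under OxBZ and 40.2, 35.9 and 31.5 under MBZ, then 13.5, 9.7 and 10.9 CPM under TBZ and 30, 32.9 and 31 in DMSO. pals-23 had 31.5 to 61 CPM in carbamate libraries, then 12.3 ± 2.94 under TBZ and 34.2 ± 3.4 in DMSO. TBZ stood below DMSO and below all carbamate libraries at both. They fell by 1.46 ± 0.148 and 1.48 ± 0.151 on the log2 scale under TBZ against DMSO (adjusted p = 5.92e-05 and 5.97e-05). Of 35 tested pals genes 3 were higher and 2 lower in the carbamate mean, beside 4.28% and 4.51% of all genes. pals-23 and pals-24 were the 2 called in all 4 pairs, beside 0.498% of all genes higher there.

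F-box A genes encode adaptors that select proteins for ubiquitin ligases. fbxa-26 had 4.2 to 7.54 CPM in carbamate libraries, then 1.66, 1.24 and 1.24 under TBZ and 4.88 ± 1.01 in DMSO, and the carbamate mean lay 0.33 ± 0.18 above DMSO on the log2 scale (adjusted p = 0.23), while TBZ fell by 1.82 ± 0.232 (adjusted p = 0.000388). fbxa-60 had 42 to 83.5 CPM in carbamate libraries, then 19.3, 18.7 and 17.8 under TBZ and 24.1 ± 3.65 in DMSO. fbxa-98 had 5.34 to 10.6 CPM in carbamate libraries, then 2.11 ± 0.394 under TBZ and 3.56 ± 0.377 in DMSO. Of 152 tested, 21 were higher and 8 lower in the carbamate mean, beside 4.28% and 4.51% of all genes, so the count of lower genes was near the background. In all 4 pairs 5 were higher, beside 0.498% of all genes. The median log2 fold change of the group was -0.00698, and the 21 became 12 without TBZ replicate 4 and the 8 became 15, 2 and 2 without TBZ replicates 2, 3 and 4.

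kgb-2, a JNK-like MAP kinase gene chosen after its values were seen, had 8.82 to 20.3 CPM in carbamate libraries, then 2.26, 2.59 and 3.93 under TBZ and 2.62, 2.73 and 3.75 in DMSO. The carbamate mean rose by 2.22 ± 0.215 against DMSO (adjusted p = 1.41e-05), and TBZ differed from DMSO by -0.05 ± 0.235 (adjusted p = 0.907), with a 95% interval of -0.55 to 0.45. xbp-1, the transcription factor of the unfolded protein response, moved little: 348 ± 13.9, 335 ± 9.3, 388 ± 33.2 and 378 ± 19.9 CPM under ABZ, FBZ, OxBZ and MBZ, then 255, 266 and 243 under TBZ and 322 ± 11.8 in DMSO. Its smallest log2 fold change was 0.39 ± 0.0644 (adjusted p = 0.00808), and that call was lost without TBZ replicate 4 (adjusted p = 0.0668).

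The DMSO level sorts the 117 genes. Of the 87 with the carbamates higher, the DMSO mean lay between TBZ and the nearest carbamate at 60, within the range of the carbamate means at 14, below TBZ at 12 and above every carbamate at 1. Against DMSO the carbamate mean rose at 66 of the 87 and fell at 0, while TBZ rose at 3 and fell at 45. Of the 30 with TBZ higher, the carbamate mean rose above DMSO at 6 and fell at 13, while TBZ rose at 28 and fell at 0. The genes were chosen by the TBZ and carbamate libraries that also enter both comparisons against DMSO, so these counts are a description. The TBZ against DMSO counts behind them, 535 genes higher and 554 lower in all, became 220 and 203 without TBZ replicate 3, 220 and 166 without TBZ replicate 4, 1008 and 1110 without TBZ replicate 2, and 301 and 305 without DMSO replicate 2. Without MBZ replicate 1, 859 genes were lower. The carbamate mean against DMSO, 1238 higher and 2192 lower, became 470 and 504 without DMSO replicate 2, and 643 were higher without ABZ replicate 2 and DMSO replicate 2 together.

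**Figure D5:**
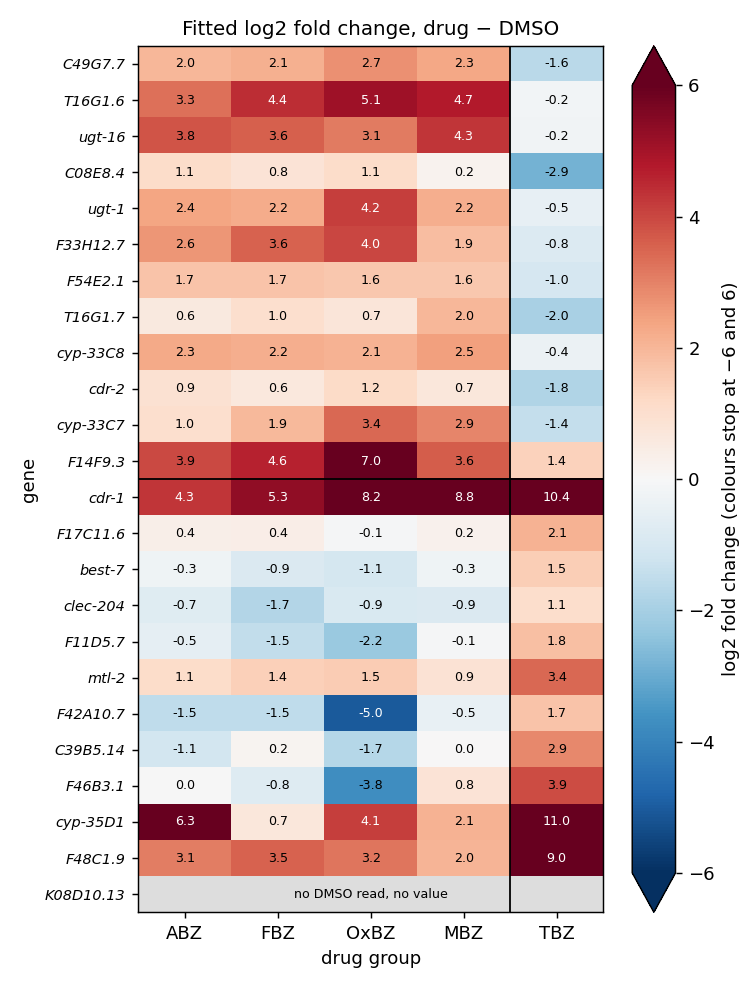
Fitted log2 fold change of each drug against DMSO for the 12 genes with the largest separation in each direction, carbamates higher above the line and TBZ higher below it, in colours that stop at -6 and 6. The TBZ column is at or below 0 for 11 of the upper 12 genes and above 1 for the lower genes, and cdr-1 is raised by all 5 drugs. K08D10.13 is grey, since DMSO had no read.

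Where the 117 genes lie was not used to choose them. On chromosome V lay 40 of the 87 genes and 10 of the 30, beside 3706 of the 17338 tested genes that the annotation places on a chromosome (21.4%). Of the 87, 11 had another of the 87 among the 3 genes on either side. They form the groups T16G1.5, T16G1.6 and T16G1.7, ugt-1 and ugt-2, pals-23 and pals-24, F16B4.2 and nhr-178, and ZK1055.6 and ZK1055.7. Of the 30, none had another of the 30 that near. Neighbours called in opposite directions were not counted. cyp-35D1 and nhr-176, which went opposite ways, are consecutive among the 117 along chromosome V. Neighbours in tandem families share sequence, so these are not independent observations. A protein-coding gene overlapped 23 of the 87 and 10 of the 30, and with the strand setting of the counting not given, reads of overlapping genes cannot be told apart. The shares of all tested genes with such an overlap or such a neighbour were not computed, so neither count can be called unusual.

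Tubulin genes were examined because beta-tubulin is the target of these drugs, and the list also holds genes of other tubulins, such as alpha-tubulin. ben-1 did not pass the test, with a carbamate mean against TBZ of 0.07 ± 0.0763 (adjusted p = 0.633) and a 95% interval of -0.09 to 0.23. By pair it differed by 0.11, 0.28, -0.03 and -0.08 for ABZ, FBZ, OxBZ and MBZ (adjusted p = 0.462, 0.0547, 0.873 and 0.637). Of 16 tubulin genes 4 were higher and 0 lower in the carbamate mean, beside 4.28% and 4.51% of all genes. tba-7, an alpha-tubulin gene, had 30.2 ± 14, 36.7 ± 4.55, 42.1 ± 4.81 and 22.5 ± 4.36 CPM under ABZ, FBZ, OxBZ and MBZ, then 8.9, 3.79 and 3.78 under TBZ and 15.9 ± 6.02 in DMSO. It was the only tubulin gene called in all 4 pairs, with a smallest log2 fold change of 2.03 ± 0.380 (adjusted p = 0.0196), and that call was lost without OxBZ replicate 1 (adjusted p = 0.0524), MBZ replicate 1 (0.119), MBZ replicate 2 (0.0637), TBZ replicate 3 (0.144) or TBZ replicate 4 (0.139). tbb-6, a beta-tubulin gene, had 18.8 ± 15.5, 39.1 ± 8.03, 105 ± 8.46 and 14.8 ± 4.37 CPM under ABZ, FBZ, OxBZ and MBZ, then 7.02 ± 2.32 under TBZ and 3.55 ± 2.02 in DMSO, and the ABZ and MBZ pairs did not pass (adjusted p = 0.0533 and 0.14). The 2 abundant genes tbb-1 and tbb-2 differed by 0.26 ± 0.0481 and 0.21 ± 0.0467, of which the OxBZ pair had 0.67 and 0.62, and neither passed when OxBZ was left out of the mean. tbb-2 also did not pass without TBZ replicate 3 (adjusted p = 0.117).

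Some large differences between the carbamate mean and TBZ varied widely in size from carbamate to carbamate. pgp-9, an ABC transporter gene, had 32.6 ± 20.5 CPM under ABZ, 67.3 ± 8.56 under FBZ, 595 ± 83.4 under OxBZ and 238 ± 75.9 under MBZ, then 11 ± 2.47 under TBZ and 14.1 ± 10 in DMSO. cyp-13A6 had 3.63 ± 1.16, 27.5 ± 0.746, 116 ± 13.4 and 441 ± 58.3 CPM under ABZ, FBZ, OxBZ and MBZ, then 3.88 ± 3.03 under TBZ and 0.69 ± 0.119 in DMSO, so that ABZ and TBZ overlapped. E02C12.6, of the kinase-like family, had 2.73 ± 1.67, 37.4 ± 1.78, 112 ± 11.2 and 4.56 ± 2.32 CPM under ABZ, FBZ, OxBZ and MBZ, then 0.709 ± 0.195 under TBZ and 2.3 ± 1.48 in DMSO. Their log2 fold changes for the carbamate mean were 3.59 ± 0.473, 3.62 ± 0.432 and 4.41 ± 0.502 (adjusted p = 0.000168, 7.8e-05 and 5.45e-05). Also in this set were cyp-13A7 and B0205.13, at 3.98 ± 0.540 and 3.62 ± 0.760. The median 95% half-width for a pair was 0.494 to 0.498 on the log2 scale, and 0.389 for the carbamate mean, which limits what a missing call can show.

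Antimicrobial peptide genes leaned toward TBZ through 2 of its 3 libraries. cnc-6, of the caenacin family, had 0 to 1.84 CPM in carbamate libraries, then 0.557, 27.9 and 33.6 CPM in TBZ libraries, and 0.0747 ± 0.0441 in DMSO. cnc-1 had 0.0348 to 0.498 CPM in carbamate libraries, then 0.205, 9.84 and 11.9 CPM under TBZ, and 0.142 ± 0.133 in DMSO. nlp-34, an antimicrobial nlp gene, had 1.32 to 25.5 CPM in carbamate libraries, then 6.01, 103 and 122 CPM under TBZ, and 0.758 ± 0.434 in DMSO. TBZ replicate 2 fell inside the carbamate range at these 3 genes, and none was called in all 4 pairs. The carbamate mean was lower by log2 fold changes of -6.29 ± 0.713, -5.03 ± 0.645 and -4.57 ± 0.542 (adjusted p = 5.23e-05, 0.000136 and 7.52e-05).

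K10D11.2 had 0 to 2.88 CPM in carbamate libraries, then 0.088, 16.7 and 23 CPM in TBZ libraries, and 0.151 ± 0.0705 in DMSO, with a log2 fold change of -5.57 ± 0.712 (adjusted p = 0.000133). gst-37, a glutathione S-transferase gene, had 0 to 0.697 CPM in carbamate libraries, then 1.69, 4.12 and 4.8 CPM in TBZ libraries, and 0.315 ± 0.312 in DMSO. Its carbamate mean was lower by -4.56 ± 0.623 (adjusted p = 0.000225). Of 20 tested cnc and antimicrobial nlp genes, 8 were lower and 1 higher in the carbamate mean, beside 4.51% and 4.28% of all genes. Their median was -0.70, and the 8 became 3 without TBZ replicate 3 and 3 without TBZ replicate 4. TBZ replicate 2 was also the TBZ library with the highest collagen share, and the part of that in these values was not tested.

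C-type lectins, lysozyme and saposin-like genes and neuropeptides had more members called toward TBZ in the OxBZ pair than in the other pairs. Of all genes tested, 4.07% were lower in ABZ, 17% in FBZ, 16% in OxBZ and 2.75% in MBZ. In the same pairs 6.18%, 14.1%, 20.5% and 3.86% were higher. In the carbamate mean 4.51% were lower and 4.28% higher. Of 177 C-type lectins, 27 were lower and 5 higher in the carbamate mean, with a median of -0.43. By pair 16 were lower in ABZ, 43 in FBZ, 75 in OxBZ and 7 in MBZ, the last near the share of all genes. In these pairs 22, 18, 4 and 10 lectins were higher, so in ABZ and MBZ more were higher than lower. Of 101 neuropeptide genes, 17 were lower and 1 higher in the carbamate mean. By pair 2 were lower in ABZ, 5 in FBZ, 80 in OxBZ and 2 in MBZ, and 3, 11, 1 and 1 were higher. The 17 became 2 without TBZ replicate 3 and 8 without TBZ replicate 4. Of 39 lysozyme and saposin-like genes, 11 were lower and 3 higher in the carbamate mean. By pair 6 were lower in ABZ, 10 in FBZ, 19 in OxBZ and 1 in MBZ, and 5, 2, 4 and 4 were higher. In the carbamate mean without TBZ replicate 2 the lectins higher were 10 and the lysozyme and saposin-like genes higher 5. The lectins higher there were 2 and 3 without TBZ replicates 3 and 4. In fatty acid metabolism, 12 of 95 were lower and 2 higher in the carbamate mean, and 5 were higher without TBZ replicate 2. The named gene acox-1.5, a peroxisomal acyl-CoA oxidase, had 12.6 to 106 CPM in carbamate libraries, then 167 ± 7.78 CPM under TBZ, and 96.1 ± 34.5 in DMSO.

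Groups that mark tissues and reproduction are given by their counts. In the carbamate mean 4.28% of all genes were higher and 4.51% lower. Sperm genes had 0 of 75 called in the carbamate mean, although the median was -0.86. The FBZ pair alone had 57 lower and 1 higher, beside 17% and 14.1% of all genes. Vitellogenins, oocyte, germline and hypodermis markers also had 0 called in the carbamate mean, in which opposite changes can cancel. In the OxBZ pair 16 of 20 oocyte and 9 of 20 germline genes were higher, beside 20.5% of all genes, and 1 and 0 were lower. In the FBZ pair 2 oocyte and 6 germline genes were lower, beside 17% of all genes, and 0 were higher. ABZ had 3 germline genes higher. Of 13 intestine markers 1 was higher and 2 lower in the carbamate mean, and of 17 muscle markers 1 was higher and 0 lower. By pair 3 muscle markers were higher in ABZ, 8 in FBZ, 1 in OxBZ and 0 in MBZ, and 1 was lower, in OxBZ. Of all genes, 6.18%, 14.1%, 20.5% and 3.86% were higher in these pairs. Of 14 neuron markers 3 were higher and 0 lower in the carbamate mean, a larger share than the 4.28% of all genes. By pair 11 were higher in FBZ, beside 14.1% of all genes. In OxBZ 2 were higher and 9 lower, beside 20.5% and 16% of all genes. Collagens had 3 higher and 1 lower of 167 in the carbamate mean, smaller shares than those of all genes. The 3 became 15 without TBZ replicate 2, 0 without TBZ replicate 3 and 0 without TBZ replicate 4. Glutathione S-transferases, with 4 higher and 3 lower of 47, and nuclear hormone receptors, with 12 higher and 14 lower of 229, stood nearer the shares of all genes. Without TBZ replicate 2 these became 9 higher and 5 lower glutathione S-transferases and 24 lower receptors, and without TBZ replicate 3 there was 1 higher glutathione S-transferase.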

How the data were processed

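RNA sequencing of 18 libraries was used as deposited: a table of whole-number counts that the authors made per gene, with Subread 1.4.6 and featureCounts per the submitters' processing notes. Build, annotation and strand setting were not stated in the labels or the table. Symbols came from the Ensembl annotation (19628 of 20395 identifiers matched, 205 with a shared symbol). The members and lists were chosen with earlier results of these data known.

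A minimum count of 10 in edgeR's filterByExpr left 17484 genes. One robust quasi-likelihood model in edgeR 4.0.16 (R 4.3.3) covered all libraries, with TMM scaling, 12 residual degrees of freedom and a common biological coefficient of variation of 0.303. Contrasts were tested two-sided with Benjamini-Hochberg adjustment, and called under 0.05. Standard errors were approximated from the F statistic, and intervals cover 95%. Counting intervals and the floor of 3 counts cover counting error only. A single read was worth at most 0.0181 CPM. The procedure was also run on simulated counts, drawn independently for each library with the same spread in every group. Replicates here differed in spread between groups, so that run does not test such differences or effects shared between libraries.

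Genes were named by rule: the 12 largest separations each way, with at least 1 CPM and no overlap, up to 3 called members per list and direction, all tubulins, and the 5 largest differences of the carbamate mean each way outside the 117. Other genes were named after their values were seen, and besides those marked in the text these are cyp-35A4, cyp-35B2 and the neighbours on chromosome V. Alternatives were DESeq2 1.42.0, RLE scaling, other filters, other sets of libraries, a replicate block, a fold threshold and other call rules. Promoter and protein sequences were not used here.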

Additional observations from a re-analysis of the deposited data

How the results depend on the processing

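Counts below are genes with the carbamates higher, then with TBZ higher (against DMSO, higher then lower). With 1 library left out at a time, the carbamate mean ranged over 434 to 1005 and 420 to 2534, ABZ over 638 to 1180 and 411 to 1106, FBZ over 1692 to 3421 and 1857 to 3594, OxBZ over 2118 to 3684 and 2021 to 4662, MBZ over 413 to 893 and 232 to 1394, all 4 pairs over 43 to 121 and 13 to 116, the carbamate mean against DMSO over 470 to 1578 and 504 to 3055, and TBZ against DMSO over 220 to 1008 and 166 to 1110. These ranges include the run without ABZ replicate 2 and DMSO replicate 2 together, chosen after seeing the data.

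A fold of at least 1.5 gave 204 and 212 for the mean, 217 and 150 for ABZ, 767 and 727 for FBZ, 315 and 870 for OxBZ, 166 and 94 for MBZ, 27 and 9 for all 4 pairs, 223 and 208 for the mean against DMSO and 145 and 73 for TBZ against DMSO. Same-numbered ABZ and DMSO libraries deviated together (r from 0.57 to 0.837). TBZ shares only the numbers 2 and 3 with the carbamates. At these numbers r with TBZ was 0.312 and 0.436 for MBZ and -0.0371 and 0.234 for ABZ. For FBZ and OxBZ it ran from -0.0676 to -0.00441. Whether the numbers pair the carbamates with TBZ was not tested. With the replicate block, in which TBZ replicate 4 drops out, the mean gave 496 and 497, MBZ lower 279, all 4 pairs 43 and 16, and TBZ against DMSO 255 and 233. Named genes whose call in all 4 pairs was lost with the block were K08D10.13 (adjusted p = 0.213), C09D4.1 (0.208), nhr-176 (0.2), F48C1.9 (0.159), F46B3.1 (0.141), xbp-1 (0.114), F14F9.3 (0.114), F16B4.2 (0.109), T16G1.5 (0.0964), nhr-178 (0.0851), ZK1055.6 (0.0748), ZK1055.7 (0.0734) and cdr-2 (0.055), and tbb-2 lost its call in the carbamate mean (0.0666). DESeq2 gave 1297 higher for the mean, 765 lower for MBZ, 170 and 89 for all 4 pairs (all 117 among them), and 931 and 1132 for TBZ against DMSO. Drug libraries alone gave 890 lower for MBZ, the mean without FBZ 1176 higher, and the ABZ pair alone 668 and 339. Adjustment within pairs gave 688 and 419 for ABZ and 383 and 221 for MBZ. Calling each pair separately gave 223 and 137 for all 4 pairs, and the absence of overlap 370 and 254. The cause was not tested.

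Signs turned only at genes that were small or uncalled in those runs: with the replicate block tba-5 (-0.089) and tbb-4 (-0.10), without TBZ replicate 4 tba-8 (-0.10, up to 1.22 with other libraries left out), without ABZ in the mean tba-6 (0.035), without OxBZ tba-6 (0.23) and gst-21 (-0.42), and without FBZ mec-12 (-0.18), mec-7 (-0.10), tba-5 (-0.39), tbb-4 (-0.13) and tbg-1 (0.041). Of the 87 and 30 genes, 25 and 7 kept the call in all 26 settings, and none turned. With 3 libraries a group, small differences could be missed.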
